A study of Homo sapiens with 27 samples.

Results

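The G1 cyclins and CDK inhibitors were described as a set of 10 genes among the 57905 genes quantified in U937 cells, a human myelomonocytic leukemia cell line. The members were taken by symbol: the D-type cyclins CCND1, CCND2 and CCND3, the E-type cyclins CCNE1 and CCNE2, the kinase CDK4, and the inhibitors CDKN1A (p21), CDKN1B (p27), CDKN2C (p18) and CDKN2D (p19). All 10 matched an Ensembl gene identifier in the deposited table. The rule that names them uses no measured value, but the set was chosen with earlier results of these data known. RNA-seq libraries came from control U937 cells and from cells exposed to matrine at 0.8 mg/ml, for either 30 min or 24 h, 3 from each group and 9 in all. Matrine is an alkaloid of the herb Sophora flavescens, and its vehicle in the study was ddH2O. The same 3 control libraries served both times. The time for which the control cells were cultured is not given in the sources used here, so time in culture and 24 h of treatment cannot be told apart. The labels do not say whether the replicates of a group came from separate cultures, and p-values measure only the spread between these libraries. The labelled HL-60 and K562 libraries of the experiment were not analysed here.

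Cells commit to division in G1. D-type cyclins bind CDK4 or CDK6 and E-type cyclins bind CDK2, and the active kinases phosphorylate RB1 and its relatives, which releases E2F factors and starts the transcription of S phase genes. The INK4 inhibitors, to which CDKN2C and CDKN2D belong, bind CDK4 and CDK6 alone, whereas the CIP/KIP inhibitors CDKN1A and CDKN1B bind cyclin-CDK complexes and block CDK2 in particular. In myeloid cells these inhibitors are known to rise as precursors leave the cell cycle and differentiate. MYC, the gene that the study follows, encodes a transcription factor that promotes entry into the cycle and binds the E-box CACGTG as a dimer with MAX.

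The libraries held 17314931 to 21930018 counted reads each, of which the 10 top genes held 4.99% to 5.28%. Of the 11 myelomonocytic markers examined, 9 had a mean above 1 FPKM (the authors' unit, fragments scaled to gene length and library size) in the control, while MPO (0.313 FPKM) and CD68 (0.557 FPKM) did not. Their summed level was 1574 to 1769 FPKM in the control, 1658 to 1716 FPKM after 30 min and 2304 to 2434 FPKM after 24 h. The larger sum at 24 h came mainly from the granule protease gene ELANE, whose mean went from 885.1 to 1378 FPKM, with AZU1 (205 to 357 FPKM) and ITGB2 (114 to 223 FPKM), while the lysozyme gene LYZ went from 292 to 244 FPKM. At 24 h against control, 6 of the 10 tested markers were higher and 3 lower at an adjusted p below 0.05. Of all 12035 tested genes 63.6% passed this criterion, 3284 higher and 4372 lower. Erythroid markers, which mark K562, summed to at most 4.12 FPKM in any library, with HBG1 at 0 throughout. Lymphoid markers summed to at most 4.14 FPKM, with CD3D, CD3E and MS4A1 at 0 throughout.

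The promoters of the members are shown first because MYC mRNA fell at both treated times (below) and its binding motif, the E-box, could be read in them. RefSeq windows on GRCh38.p14 were given for 7 of the 10 members, 11 windows in all, each covering 250 bases before and 50 bases after a transcription start. CCND1, CCND2 and CCNE2 had none. CACGTG, which reads the same on both strands, was found in the windows of CDK4 and CDKN2C, and not in those of CCND3, CCNE1, CDKN1A, CDKN1B or CDKN2D. The 250 upstream bases of the windows with a match, and those of CDKN1A as the member with the largest increase and no match, read 5′ to 3′ as follows, with CACGTG in capitals.
CDK4 (chr12:57752311-57752560, minus strand): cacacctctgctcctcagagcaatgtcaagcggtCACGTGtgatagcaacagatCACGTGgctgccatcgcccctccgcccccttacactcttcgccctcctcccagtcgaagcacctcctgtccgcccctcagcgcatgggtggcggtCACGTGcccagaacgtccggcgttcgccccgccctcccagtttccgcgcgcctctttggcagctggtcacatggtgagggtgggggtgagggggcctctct
CDKN2C, window 1 (chr1:50960495-50960744, plus strand): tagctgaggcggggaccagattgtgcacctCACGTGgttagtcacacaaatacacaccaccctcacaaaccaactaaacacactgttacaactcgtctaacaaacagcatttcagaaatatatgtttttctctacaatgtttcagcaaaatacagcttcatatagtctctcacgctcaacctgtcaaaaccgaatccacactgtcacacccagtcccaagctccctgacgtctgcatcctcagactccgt
CDKN2C, window 3 (chr1:50969995-50970244, plus strand): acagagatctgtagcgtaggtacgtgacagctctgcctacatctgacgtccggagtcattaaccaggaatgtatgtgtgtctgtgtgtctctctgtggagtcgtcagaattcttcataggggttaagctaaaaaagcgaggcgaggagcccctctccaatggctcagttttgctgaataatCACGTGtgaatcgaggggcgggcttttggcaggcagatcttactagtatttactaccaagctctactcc
CDKN1A (chr6:36678464-36678713, plus strand): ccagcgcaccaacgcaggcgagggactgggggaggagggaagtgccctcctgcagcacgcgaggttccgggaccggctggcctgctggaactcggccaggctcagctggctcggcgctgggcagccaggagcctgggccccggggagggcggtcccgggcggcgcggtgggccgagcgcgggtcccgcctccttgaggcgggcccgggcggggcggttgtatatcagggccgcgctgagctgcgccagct
In the CDK4 window the E-box occurred 3 times, with first bases at -216, -196 and -101 from the start. It occurred once in CDKN2C window 1, at -220, and once in CDKN2C window 3, at -69. Among all 35116 human promoter windows of this length, 7.26% held at least 1 CACGTG and 0.0940% held at least 3. These shares are per window and not per gene, and CDKN2C had 3 windows. The E2F motifs TTTCGCGC, TTTGGCGC and TTTCCCGC, searched on both strands, occurred in 0.515%, 0.652% and 1.63% of all windows and in none of the 11 windows of the members. These matches describe letters only, and binding was not measured here.

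The mRNA levels of the members were compared per length, as FPKM (plot of the levels of each gene). In the control CDK4 was the most abundant, at 73.1 ± 2.64 FPKM (SD, n = 3). It was followed by CDKN1B (30.8 ± 1.03 FPKM), CCND3 (25.7 ± 1.2 FPKM), CDKN2C (17.03 ± 0.881 FPKM) and CDKN2D (14.4 ± 1.36 FPKM). CCNE1 (8.92 ± 0.858 FPKM), CCND2 (6.46 ± 0.318 FPKM) and CCNE2 (6.34 ± 0.471 FPKM) lay lower. CDKN1A (1.18 ± 0.186 FPKM) and CCND1 (0.517 ± 0.131 FPKM) were at the bottom. Only CCND2 and CCNE2 overlapped among neighbours in this order. After 24 h the order had changed: CDK4 was still first and CCND1 last, but the 3 genes below CDK4 were CDKN1B, CDKN2C and CDKN2D, with CCND3 overlapping CDKN2D, and CCND2 lay just above CCND1. CDKN1A then overlapped CCNE1.

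**Figure D1:**
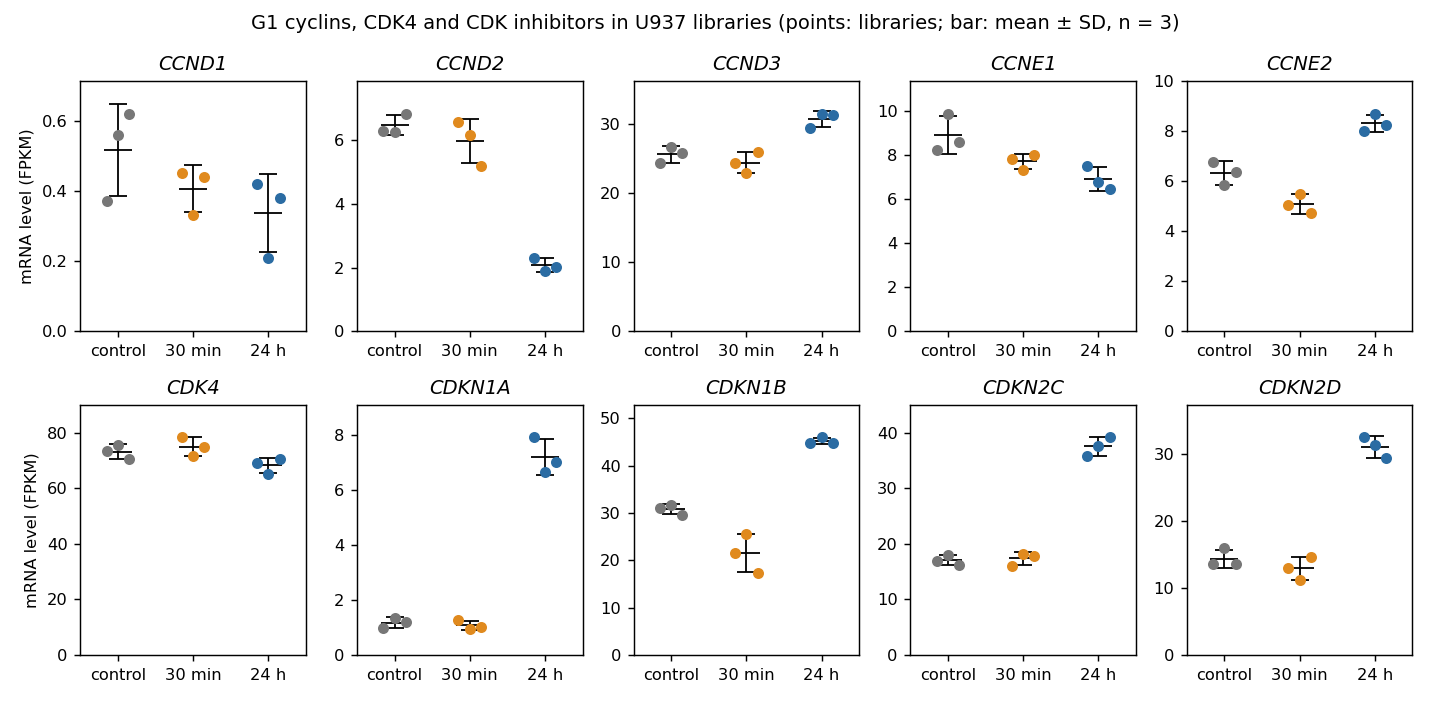
mRNA level (FPKM, linear axes from 0) of each of the 10 genes in each library of the control, 30 min and 24 h groups, with points for libraries and bars for the mean ± SD (n = 3). CDKN1A, CDKN2C, CDKN2D and CDKN1B lay higher in all 3 libraries at 24 h than in any other library, as did CCND3 and CCNE2 by smaller margins, and CCND2 lay lower.

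Genes with a mean above 1 FPKM over the 6 libraries compared were tested with edgeR (quasi-likelihood test, Benjamini-Hochberg adjusted over every gene tested). A gene was called where its adjusted p was below 0.05 and it changed by 1.5-fold or more. By this rule 9 members were tested in each comparison, all but CCND1. After 24 h of matrine, 4 of the 9 tested members were called, where 26.8% of all 12035 tested genes were called. CDKN1A, CDKN2C and CDKN2D were up-regulated, as were 13.1% of all tested genes, and CCND2 was down-regulated, as were 13.7%. The median log2 fold change of the 9 members was 0.28, beside -0.06 over all genes tested. On the adjusted p alone all 9 tested members passed, 6 higher and 3 lower, where 63.6% of all tested genes passed. The 24 h and control libraries failed to overlap in FPKM for 69.7% of all tested genes. In bulk libraries, a change in the share of cells that express a gene and a change in its mRNA per cell cannot be told apart. The myelomonocytic markers moved at 24 h too, in both directions, and their part in these changes was not tested.

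CDKN1A, the p21 gene on chromosome 6 (GRCh38, 36676460 to 36687337, ENSG00000124762), was the member with the largest increase. Its level was 0.98, 1.35 and 1.2 FPKM in the control libraries, 1.27, 0.96 and 1.02 FPKM after 30 min, and 7.91, 6.65 and 7.02 FPKM after 24 h. All 3 libraries at 24 h lay far above the other 6, which overlapped. These levels rested on 61 to 78 counts in the control and 404 to 485 counts at 24 h. The log2 fold change at 24 h against control was 2.50 (SE 0.142, adjusted p = 3.5e-12), a 5.65-fold increase. Only 62 of the 12035 tested genes had a larger one. The fold changes tested here are relative to TMM scaling, whose factors were 1.05 to 1.07 at 24 h and 0.963 to 0.991 in the control, and are therefore slightly lower than ratios of FPKM.

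CDKN2C, the p18 gene on chromosome 1 (GRCh38, 50960745 to 50974634, ENSG00000123080), measured 16.91, 17.96 and 16.21 FPKM in the control, 16.09, 18.16 and 17.86 FPKM after 30 min, and 35.85, 37.56 and 39.15 FPKM after 24 h. The 24 h libraries stood apart from the other 6, and the control and 30 min groups overlapped. Its log2 fold change at 24 h was 1.02 (SE 0.069, adjusted p = 5.4e-11). CDKN2D, the p19 gene on chromosome 19 (GRCh38, 10566460 to 10569059, ENSG00000129355), measured 13.57, 15.94 and 13.60 FPKM in the control, 12.95, 11.24 and 14.61 FPKM after 30 min, and 32.51, 31.43 and 29.36 FPKM after 24 h. It too was separate at 24 h alone. Its log2 fold change was 1.00 (SE 0.096, adjusted p = 1.2e-08), so that a threshold of 2-fold would not call it. The increases of these INK4 inhibitors were within 1 SE of each other.

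CDKN1B, the p27 gene on chromosome 12 (GRCh38, 12685498 to 12722369, ENSG00000111276), passed the adjusted p at both times, in opposite directions. It measured 31.03, 31.72 and 29.69 FPKM in the control, 21.59, 25.47 and 17.42 FPKM after 30 min, and 44.84, 46.01 and 44.81 FPKM after 24 h. No library of any group overlapped another group, and the 30 min libraries were the lowest and the most spread. At 24 h against control the log2 fold change was 0.44 (SE 0.089, adjusted p = 0.00021), which passed the p and not the 1.5-fold threshold.

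Among the cyclins, CCND2 fell while CCND3 did not. CCND2 (chromosome 12, GRCh38, 4269771 to 4305353, ENSG00000118971) encodes cyclin D2. It measured 6.29, 6.27 and 6.83 FPKM in the control, 6.56, 6.15 and 5.2 FPKM after 30 min, and 2.31, 1.9 and 2.01 FPKM after 24 h. The 24 h libraries lay below all others, by a log2 fold change of -1.75 against control (SE 0.098, adjusted p = 2.7e-12), and only 36 of the 12035 tested genes had a more negative one. CCND2-AS1, whose exons overlap it on the other strand, had at most 2 counts in any library.

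CCND3 (chromosome 6, GRCh38, 41934934 to 42050357, ENSG00000112576), encoding cyclin D3, was the main D-type cyclin transcript in all libraries. It measured 24.39, 26.77 and 25.88 FPKM in the control, 24.45, 22.91 and 25.95 FPKM after 30 min, and 29.53, 31.57 and 31.40 FPKM after 24 h. The FPKM groups did not overlap at 24 h, but its log2 fold change against control was small, at 0.15 (SE 0.063, adjusted p = 0.0441). The adjusted p lay between 0.00082 and 0.145 over the alternatives examined. It exceeded 0.05 with the replicate number as a block (0.0583), without a filter (0.0686), and without control replicate 1 (0.107) or 3 (0.0935), 30 min replicate 1 (0.0531), or 24 h replicate 2 (0.0636) or 3 (0.145).

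CCND1 (chromosome 11, GRCh38, 69641156 to 69654474, ENSG00000110092), encoding cyclin D1, stayed under 1 FPKM in every library and was not tested. It measured 0.37, 0.56 and 0.62 FPKM in the control, 0.45, 0.33 and 0.44 FPKM after 30 min, and 0.42, 0.21 and 0.38 FPKM after 24 h, from 21 to 52 counts per library. The groups overlapped in every comparison. Without the filter on low values its log2 fold change at 24 h against control was -0.71 (SE 0.257, adjusted p = 0.0217), which called it and brought the members called from 4 to 5. LTO1, which overlaps it on the other strand, measured 2.71 to 3.43 FPKM, and the strand setting of the counting is not given in the sources used here.

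The E-type cyclins moved in opposite directions at 24 h. CCNE1 (chromosome 19, GRCh38, 29811991 to 29824312, ENSG00000105173), encoding cyclin E1, measured 8.26, 9.89 and 8.61 FPKM in the control, 7.81, 7.33 and 8.02 FPKM after 30 min, and 7.51, 6.77 and 6.47 FPKM after 24 h. Every treated library was below every control library, and the log2 fold change at 24 h was -0.48 (SE 0.097, adjusted p = 0.00018), under the 1.5-fold threshold. CCNE2 (chromosome 8, GRCh38, 94879770 to 94896678, ENSG00000175305), encoding cyclin E2, measured 6.79, 5.85 and 6.38 FPKM in the control, 5.05, 5.51 and 4.74 FPKM after 30 min, and 8.03, 8.71 and 8.24 FPKM after 24 h. The 3 groups did not overlap, and the level was lowest at 30 min and highest at 24 h. Its log2 fold change at 24 h against control was 0.28 (SE 0.083, adjusted p = 0.0060). Exons of INTS8, at 9.92 to 11.84 FPKM, overlap CCNE2 on the other strand.

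CDK4 (chromosome 12, GRCh38, 57747727 to 57756013, ENSG00000135446), the catalytic partner of the D-type cyclins, changed little. It measured 73.31, 75.69 and 70.42 FPKM in the control, 78.26, 71.57 and 74.93 FPKM after 30 min, and 68.92, 65.24 and 70.57 FPKM after 24 h, and the 24 h and control libraries overlapped. Its log2 fold change at 24 h was -0.22 (SE 0.059, adjusted p = 0.0034). With library totals alone in place of TMM factors it was -0.10 (adjusted p = 0.118), and without 24 h replicate 2 it was -0.15 (adjusted p = 0.0767). The limma test gave -0.10 on log2(FPKM + 0.1) (adjusted p = 0.104) and -0.099 on log2(FPKM + 1) (adjusted p = 0.102).

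**Figure D2:**
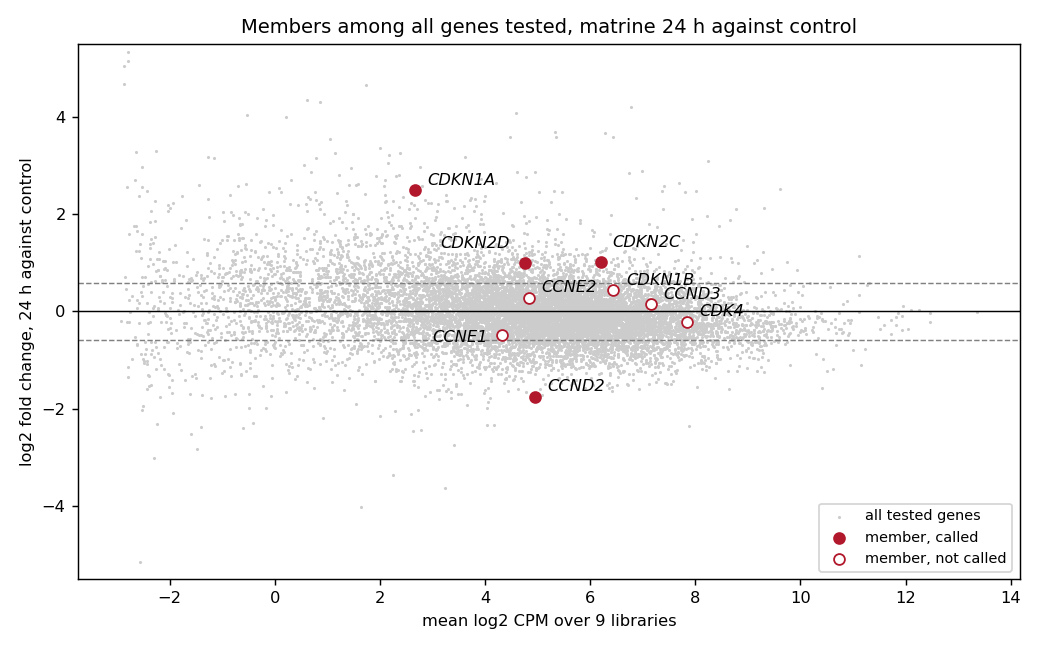
Log2 fold change at 24 h against control (vertical axis) over the mean log2 CPM of the 9 libraries (horizontal axis) for all 12035 tested genes in grey, with the 9 tested members in red, filled where called. Dashed lines mark a 1.5-fold change. CDKN1A at 2.50 and CCND2 at -1.75 lie near the edges of the cloud, and CDK4, CCND3, CCNE1, CCNE2 and CDKN1B lie inside the dashed lines.

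After 30 min none of the 9 tested members was called by edgeR's quasi-likelihood test, where 0.647% of 11587 tested genes were called. DESeq2 and limma also called 0. At an unadjusted p below 0.05, 2 of the 9 passed, beside 1290 of all tested genes. These were CDKN1B and CCNE2. CDKN1B fell to a log2 fold change of -0.50 (SE 0.092, adjusted p = 0.0038), with all 3 treated libraries below all controls. This was a fold of 0.708, short of the 1.5-fold threshold, and it made CDKN1B the 1 member past the adjusted p alone, where 1.58% of all tested genes passed. The value depended on the libraries kept: it was -0.63 (adjusted p = 0.00010), and called, without replicate 2 of the 30 min group, and -0.36 without replicate 3. With limma on log2(FPKM + 0.1) it was -0.53 (adjusted p = 0.0518). CCNE2 gave -0.29 (SE 0.086, adjusted p = 0.106) and CCNE1 gave -0.19 (SE 0.096, adjusted p = 0.499), also with no overlap between the groups. Groups failed to overlap for 13.8% of all genes tested in this comparison. The remaining 6 tested members had log2 fold changes between -0.13 and 0.06, with adjusted p from 0.701 to 0.908.

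MYC, by contrast, was down-regulated at both times. Its level was 207.2 ± 5.10 FPKM in the control, 54.1 ± 4.58 FPKM after 30 min and 43.8 ± 2.03 FPKM after 24 h (SD, n = 3 each). The log2 fold changes against control were -1.92 (SE 0.062, adjusted p = 1.9e-14) and -2.36 (SE 0.064, adjusted p = 1.4e-17).

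The comparison of 24 h with 30 min asked which members changed between the treated times without use of the control libraries as a reference. Of the 9 tested members 5 were called, where 27.2% of 11981 tested genes were called (13.6% higher and 13.6% lower), and the median log2 fold change was 0.57 beside -0.04 over all genes tested. CDKN1A rose by 2.59 on the log2 scale (SE 0.141, adjusted p = 1.9e-12). CDKN2D rose by 1.13 (SE 0.096, adjusted p = 1.8e-09) and CDKN2C by 0.97 (SE 0.069, adjusted p = 1.0e-10). CDKN1B rose by 0.94 (SE 0.090, adjusted p = 1.2e-08), more than against the control, from which its 30 min level had departed downwards. CCND2 fell by 1.66 on the log2 scale (SE 0.097, adjusted p = 5.7e-12). CCNE2, at 0.57 (SE 0.084, adjusted p = 4.6e-06), lay just under the 1.5-fold threshold. It was called by DESeq2 at 0.63 and by limma on log2(FPKM + 0.1) at 0.70, and in edgeR without control replicate 1 (0.59), 30 min replicate 2 (0.63) or 24 h replicate 1 (0.62). CCND3 (0.20, adjusted p = 0.0089), CCNE1 (-0.30, adjusted p = 0.011) and CDK4 (-0.27, adjusted p = 0.00040) passed the p alone, as all 9 did, beside 64.7% of all tested genes. For CCNE1 the adjusted p rose to 0.0548 and 0.0527 without 24 h replicate 2 or 3, and to 0.150 with library totals alone.

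**Figure D3:**
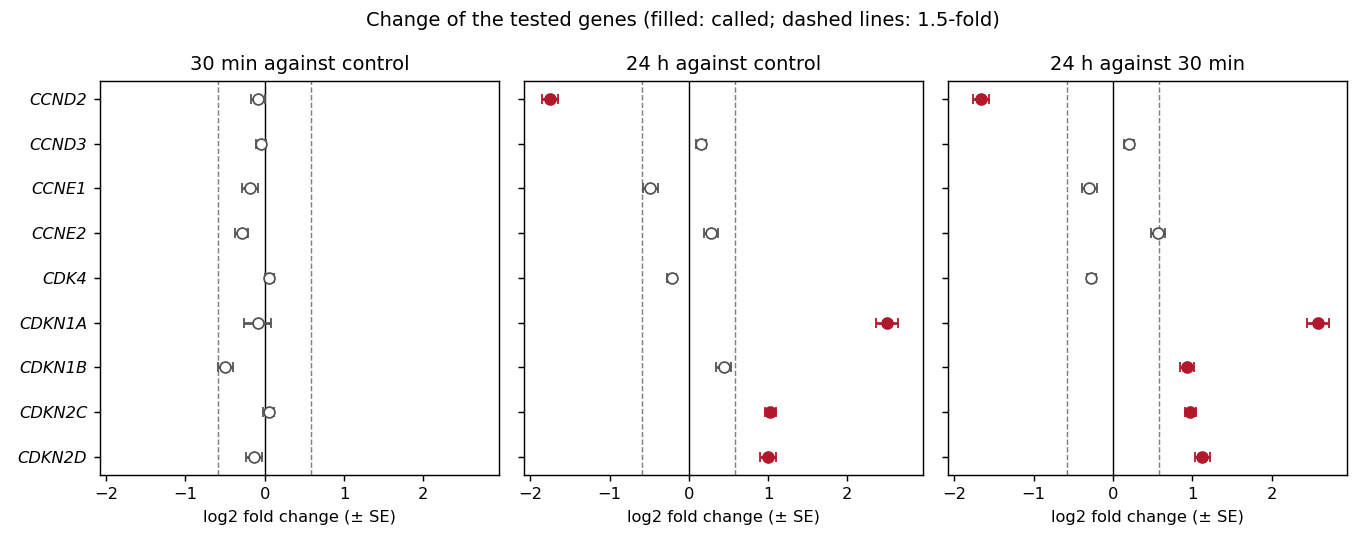
Log2 fold change with its SE (edgeR, n = 3 libraries per group) for the 9 tested genes in the 3 comparisons, filled where called, with dashed lines at 1.5-fold. None is filled at 30 min, 4 are filled at 24 h against control, and CDKN1B joins them at 24 h against 30 min.

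Summed per family, D-type cyclin mRNA was nearly level while its makeup shifted. The sum of CCND1, CCND2 and CCND3 was 32.7 ± 1.40 FPKM in the control, 30.8 ± 1.23 FPKM after 30 min and 33.2 ± 0.853 FPKM after 24 h (SD, n = 3 each). CCND2 made up 19.8% ± 0.997 of it in the control and 6.25% ± 0.803 after 24 h, and CCND3 made up 78.6% and 92.7%. The E-type sum was 15.3 ± 0.417 FPKM in the control, 12.8 ± 0.0529 FPKM after 30 min and 15.2 ± 0.463 FPKM after 24 h. CCNE2 made up 41.6% ± 4.06 of it in the control and 54.7% ± 2.58 after 24 h.

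The 4 inhibitors together measured 60.7 to 67.0 FPKM in the control, 50.9 to 55.8 FPKM after 30 min and 120.3 to 121.7 FPKM after 24 h. The 3 ranges did not overlap, and within the 30 min sum CDKN1B was the member whose own groups did not overlap with the control. The INK4 pair went from 31.4 ± 2.19 to 68.6 ± 0.329 FPKM between control and 24 h, and the CIP/KIP pair from 31.99 ± 1.09 to 52.4 ± 0.507 FPKM. CDKN1A, despite the largest fold change, made up only 5.94% ± 0.541 of the 4-inhibitor sum at 24 h. The ratio of the sum of these 4 inhibitors to the D-type cyclin sum was 1.94 ± 0.105 in the control. The value was 1.72 ± 0.156 after 30 min and 3.64 ± 0.1 after 24 h. The sum of CDKN2C and CDKN2D per FPKM of CDK4 was 0.429 ± 0.0168 in the control and 1.01 ± 0.0452 after 24 h. CDKN2A, another INK4 gene and not a member, is in none of these sums. It was counted over the whole gene, without splitting its transcripts. On that scale it measured 27.3 ± 2.38 FPKM in the control, above CDKN2C and CDKN2D, and 25.7 ± 0.677 FPKM after 24 h. An INK4 sum that held this gene-level value would rise by a smaller factor. These sums are mRNA levels on the FPKM scale, given without a test, and protein was not measured here.

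**Figure D4:**
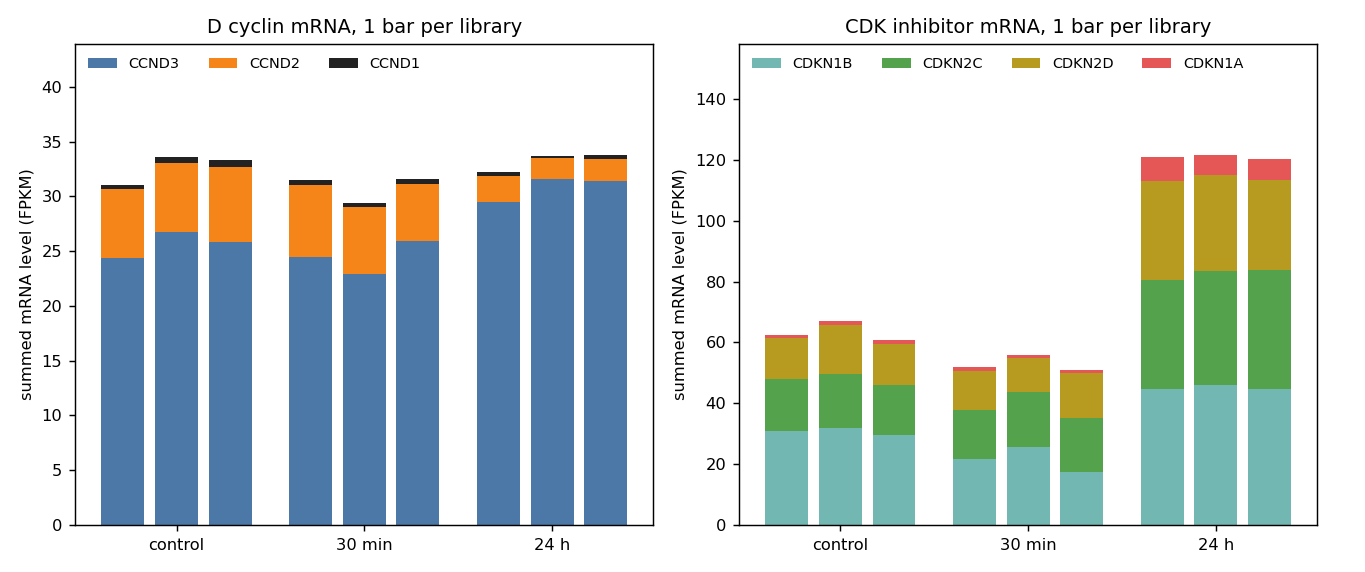
Summed mRNA level (FPKM, axes from 0) of the D-type cyclins (left) and of the 4 CDK inhibitors (right), with 1 stacked bar per library and colours for genes. The D-type cyclin bars stay between 29.4 and 33.8 FPKM while the CCND2 layer thins at 24 h, and the inhibitor bars reach 120.3 to 121.7 FPKM at 24 h.

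The other genes of G1 control were read from lists chosen with earlier results of these data known, and their counts are compared with the 26.8% of all tested genes called at 24 h (plot of the lists). Of 6 other G1 kinase genes, activators and CDC25A, none was called higher and 3 were called lower, with a median log2 fold change of -0.56. CDC25A, the phosphatase that activates CDK2, fell from 25.8 ± 0.908 to 15.6 ± 0.327 FPKM (log2 fold change -0.84, adjusted p = 1.1e-10). CCNH (-0.73, adjusted p = 1.6e-08) and MNAT1 (-0.61, adjusted p = 0.00055), subunits of the CDK-activating kinase, were also called lower. CDK6, the other partner of D-type cyclins, gave -0.52 (adjusted p = 5.1e-06) and was not called.

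Of the other inhibitors of both families, CDKN2B (p15) rose from 0.637 ± 0.110 to 2.25 ± 0.204 FPKM, a log2 fold change of 1.70 (SE 0.167, adjusted p = 1.5e-08). It passed the filter through its 24 h level, since its control mean was under 1 FPKM. CDKN2A gave -0.20 (adjusted p = 0.013) and was not called, and CDKN1C (0.293 FPKM in the control, 0.800 FPKM at 24 h) was not tested.

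Of 12 subunits and adaptors of the ubiquitin ligases that degrade G1 cyclins and CIP/KIP inhibitors, none was called higher and 3 were called lower, with a median of -0.30. SKP2, which targets p27, fell from 23.7 ± 0.603 to 15.8 ± 0.738 FPKM (-0.70, adjusted p = 8.5e-09). CUL1, the scaffold of the same ligase, gave -0.74 (adjusted p = 9.0e-10), and DTL, the adaptor that targets p21, gave -0.61 (adjusted p = 1.7e-08). Of the 5 cyclins and CDK of S phase and mitosis, CCNB1 alone was called (-0.77, adjusted p = 1.0e-10), from 102 to 64.6 FPKM. The median of the 5 was -0.42, and all 5 were lower at an adjusted p below 0.05, as were 4372 of the 12035 genes tested.

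Among 10 pocket protein and E2F/DP genes, 1 was called higher and 3 lower. E2F2, an activating E2F, gave 0.59 (adjusted p = 4.7e-07), and E2F5, a repressive one, gave -1.73 (adjusted p = 1.6e-09). E2F5 passed the filter through its control level (1.9 FPKM), since its 24 h mean was 0.613 FPKM. The dimer partners TFDP1 and TFDP2 gave -0.72 (adjusted p = 5.5e-11) and -0.71 (adjusted p = 1.7e-07). RB1 (-0.02, adjusted p = 0.881) and E2F1 (-0.09, adjusted p = 0.333) did not pass.

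Of 11 transcription factors known to control members, 3 were called higher and 1, MYC, lower. MXD1, which competes with MYC for MAX, rose from 2.09 ± 0.120 to 6.11 ± 0.251 FPKM (1.43, adjusted p = 3.2e-11). KLF6, a known activator of CDKN1A, gave 0.84 (adjusted p = 2.2e-08). BCL6, a known repressor of CCND2, gave 1.14 (adjusted p = 6.1e-08), and passed the filter through its 24 h level (2.18 FPKM), since its control mean was 0.910 FPKM. On the adjusted p alone 4 of the 11 were higher and 4 lower, beside 3284 and 4372 of the 12035 genes tested. FOXO1 was among the lower (-0.52, adjusted p = 0.0029), and KLF4 did not pass (-0.24, adjusted p = 0.261). Whether any of these factors acted on the members was not tested. Over the 6 lists 16 of 46 tested genes were called at 24 h, 2 of 44 at 30 min and 13 of 46 at 24 h against 30 min. Over all tested genes the shares called were 26.8%, 0.647% and 27.2% in the same order. The 16 were 5 higher and 11 lower, and the lower ones numbered 9 with DESeq2 or library totals, 7 with limma on log2(FPKM + 0.1) and 6 with limma on log2(FPKM + 1), while the higher ones numbered 5 in each. Both at 30 min were lower: MYC and the early growth response factor gene EGR1 (-2.11, adjusted p = 6.4e-10).

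**Figure D5:**
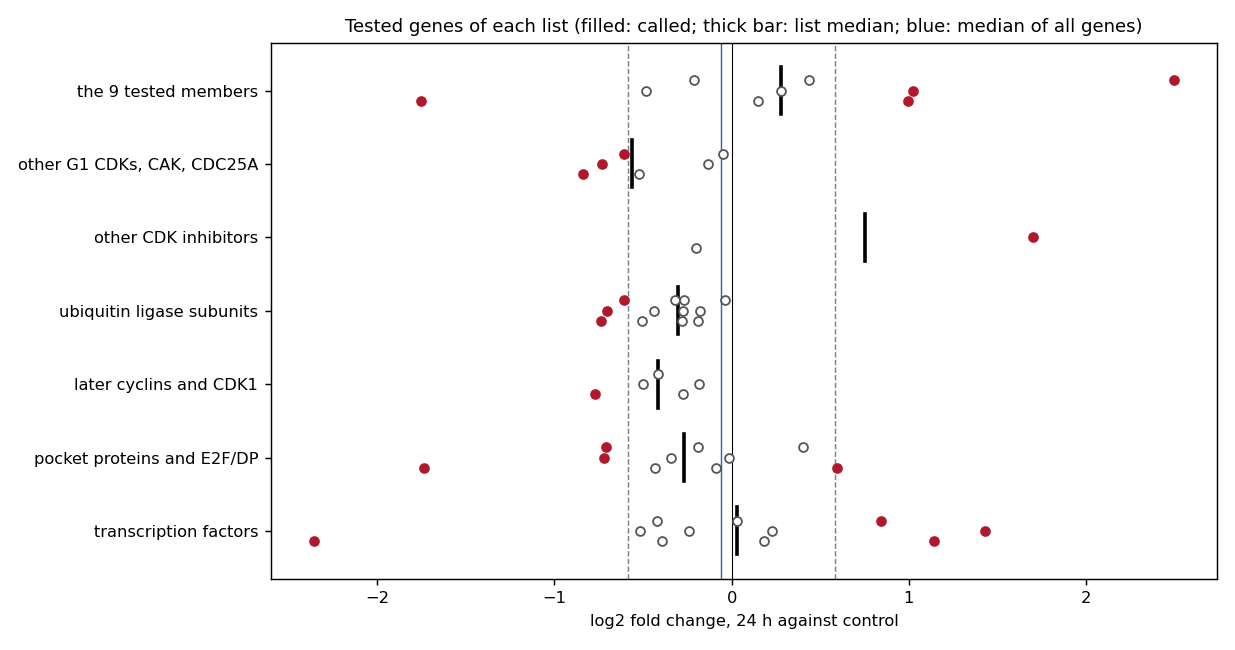
Log2 fold change at 24 h against control of the tested genes in the member set and the 6 other lists, with 1 point per gene, filled where called. Thick bars are list medians, the blue line is the median of all tested genes (-0.06) and dashed lines mark 1.5-fold. The member median (0.28) lies right of the blue line, and those of the other G1 kinases (-0.56), later cyclins (-0.42) and ubiquitin ligase subunits (-0.30) lie left of it.

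The tested genes with the most similar pattern were sought by the root mean square difference of log2 CPM, centred on the mean of the 9 libraries. For CDKN1A these were ACAT2 (0.129), FADS2 (0.140) and DHCR7 (0.163), enzymes of sterol or fatty acid synthesis, with log2 fold changes at 24 h of 2.46, 2.49 and 2.58. For CCND2 they were CRYZ (0.111), SLAMF8 (0.118) and RUVBL1 (0.124), with -1.62, -1.72 and -1.59. The measure describes these 9 libraries only, which share their treatment in groups of 3. Fold changes close to that of the member follow from this choice of genes and are no further likeness.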

How the data were processed

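The 9 U937 RNA-seq libraries, 3 per group as labelled, were used. Reads were trimmed with cutadapt 1.9.1, mapped with HISAT2 2.0.1 and counted per gene with HTSeq 0.6.1, per the labels' processing notes. Those notes name genome GRCh37 whereas the paper's methods name hg38, so the gene models behind the counts may differ from the GENCODE release 44 (GRCh38) positions printed here. Strand setting, annotation release and treatment of multi-mapping reads are not given in the sources used here, and reads of genes that overlap on opposite strands may not be separated. Overlaps were examined for the members only. The methods name both poly(A) selection and rRNA removal, and the labels an mRNA library kit. The authors deposited unnormalized counts per gene and, in the same table, FPKM values scaled by the authors to gene length and library size. Of 57905 identifiers, 51996 were matched to a symbol.

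Counts were tested with edgeR 4.0.16 (R 4.3.3) by the quasi-likelihood test in 1 fit of the 9 libraries, with TMM factors from all genes with a count and Benjamini-Hochberg adjustment over all genes tested in a comparison. FPKM served for the filter (mean above 1 over the 6 libraries of a comparison), for the levels and for family sums. A call required an adjusted p under 0.05 together with a 1.5-fold or larger change, thresholds the study names. The SE was taken as the log2 fold change divided by the square root of F. For 3 libraries against 3, the smallest two-sided p of an exact permutation test is 0.1. The procedure was tested on simulated data with few genes changed, in equal numbers up and down. It therefore could not test the scaling where many genes change, as at 24 h. Replicates differed beyond sampling noise (chi-square per degree of freedom 2.14 to 11.9), and each counted as 1 replicate.

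Alternatives covered the filter, the normalization, DESeq2 1.42.0, limma 3.58.1 on log2(FPKM + 0.1) or log2(FPKM + 1), the fold change threshold, a fit of the 6 compared libraries alone, a replicate block, and omission of each library in turn. TMM factors from the tested genes were added after the data were seen. The members and lists were chosen with earlier results of these data known. Genes named were the 10 members, the called genes of each list with the largest change at 24 h (at most 4 a list), MYC, and the 3 genes most like the most increased and most decreased member. Other list genes, such as EGR1, CDK6 and RB1, were named after their values were seen. Promoter sequences and motif shares came from RefSeq windows on GRCh38.p14. Some genes of the lists are not reported here.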

Additional observations from a re-analysis of the deposited data

Results flagged for a closer look

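Between the treated times, 5 members changed in a test of 24 h against 30 min itself, so that their changes from the shared control differed between the times (edgeR, Benjamini-Hochberg adjusted). The log2 fold change at 24 h against 30 min was 2.59 for CDKN1A (6.01-fold, adjusted p = 1.9e-12). It was 1.13 for CDKN2D, 0.97 for CDKN2C and 0.94 for CDKN1B, and -1.66 for CCND2. In each of these genes all 3 libraries at 24 h lay on the same side of all 3 libraries at 30 min, as they did for 68.6% of all genes tested.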

How the results depend on the processing

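Over 22 alternatives, the log2 fold changes of CDKN1A (1.91 to 2.62), CDKN2C (0.98 to 1.14) and CCND2 (-1.80 to -1.28) at 24 h against control kept their direction and call, and that of CDKN2D (0.95 to 1.11) lost its call only at a fold change of at least 2. CDKN1B and CDKN2C lost theirs in the same way at 24 h against 30 min. At 30 min the sign turned for CDKN1A without control replicate 2 (0.037; -0.23 to 0.037 over the libraries left out) and for CCND2 without 30 min replicate 3 (0.0047; -0.17 to 0.0047). The counts moved with the threshold, because it sets how many genes qualify. With no fold change threshold, at least 1.2-fold and at least 2-fold, 183, 175 and 24 genes were called at 30 min, 7656, 6652 and 1110 at 24 h, and 7750, 6774 and 1113 at 24 h against 30 min, beside 75, 3223 and 3260 at 1.5-fold. No filter on low values gave 123 genes at 30 min, and at 24 h it gave 5 members in place of 4, with CCND1 added. Of the members, CDKN1B alone was called at 30 min with no threshold or at 1.2-fold (1 gene each). Without a threshold 9 were called and at 1.2-fold 7 at 24 h. The same settings gave 9 and 8 at 24 h against 30 min, and 2-fold gave 3. List genes called were 37, 32 and 5 at 24 h and 39, 33 and 4 at 24 h against 30 min, at these 3 thresholds. Leaving out 1 library gave 0 to 1 members, 2 list genes and 63 to 81 genes at 30 min. It gave 4 members, 14 to 16 list genes and 3081 to 3277 genes at 24 h, and 5 to 6, 12 to 16 and 3124 to 3385 at 24 h against 30 min.

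Scaling moved the balance of directions over all genes. Of the called genes at 24 h, 48.7% were higher with TMM factors, 63.0% with library totals alone, 62.8% with limma, 57.5% with TMM factors from the tested genes and 56.3% with DESeq2. Library totals raised the median log2 fold change of all genes by 0.115. At 24 h against 30 min 50.1%, 67.4%, 67.4%, 57.2% and 56.5% were higher in the same order. DESeq2 size factors used in edgeR stayed near the TMM shares, with 49.9% higher at 24 h and 49.8% at 24 h against 30 min. Same-numbered libraries were not more alike than others: their deviations correlated at -0.159 to 0.103, those of other numbers at -0.154 to 0.188. Whether libraries of the same number were prepared together cannot be decided from these correlations. A replicate block left 0, 4 and 5 members called in the 3 comparisons, and its log2 fold change for CCND3 at 24 h was 0.15. Depth limited CCND1 (21 to 52 counts) and CDKN1A in the control (61 to 78 counts).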

Other observations

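Markers of myelomonocytic cells changed in parts at 24 h. Of the 10 tested, 4 were called higher and none lower in edgeR's quasi-likelihood test, where 13.1% of all tested genes were called higher and 13.7% lower. MPO, the myeloperoxidase gene, rose from 0.313 ± 0.117 to 1.84 ± 0.154 FPKM (log2 fold change 2.43, adjusted p = 1.6e-08; SD, n = 3), and passed the filter on low values only through its 24 h level. CSF3R, the G-CSF receptor gene, gave 1.05 (adjusted p = 1.2e-11), the integrin gene ITGB2 gave 0.86 (adjusted p = 4.5e-11) and the granule protein gene AZU1 gave 0.68 (adjusted p = 1.6e-08). The lysozyme gene LYZ (-0.38, adjusted p = 3.0e-06) and the lineage factors SPI1 (-0.39, adjusted p = 6.0e-05) and CEBPA (-0.43, adjusted p = 4.3e-05), named after their values were seen, were lower on the adjusted p and under the 1.5-fold threshold. At 30 min none of 9 tested markers was called. CEBPA alone had an unadjusted p below 0.05. It was lower at 30 min on the adjusted p too (-0.37, adjusted p = 0.0091), where 1.58% of all tested genes passed. Of the erythroid markers only KLF1 was tested at 24 h and it was not called. Of the lymphoid markers 2 were tested, and CD79A was called higher, from 1.49 to 2.58 FPKM (0.67, adjusted p = 0.0091).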
